A study of Danio rerio with 3 samples.

Results

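The vacuolar proton pump, the cathepsins and the lysosome-associated membrane proteins were followed in whole zebrafish larvae as a set of 45 genes. They were chosen by name, as the genes whose symbol begins with atp6v0, atp6v1 or atp6ap, with cts and a letter, or with lamp and a digit, with *ctsk* left out. Earlier results of these data were known when this rule was set. They are 45 of the 28084 genes named in the table and fall into 27 genes of the V-ATPase family, 16 cathepsins and 2 lamp genes.

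Lysosomes are acidic compartments in which material delivered by endocytosis and autophagy is broken down, and an autophagosome discharges its cargo only after it has fused with one. The V-ATPase pumps protons across the lysosomal membrane at the cost of ATP: its V1 sector hydrolyses ATP in the cytosol and turns a rotor, and its V0 sector in the membrane carries the protons. Cathepsins are peptidases of the acidic lumen, and LAMP proteins are the abundant glycoproteins of the lysosomal membrane, LAMP2 being also needed for some forms of autophagy in mammals. *atg5*, the gene targeted in the study, encodes a part of the conjugation machinery that attaches LC3 to the growing autophagosome membrane.

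The 3 groups were larvae of the AB strain at 6 dpf (days post-fertilization), each sequenced as 1 library. 5MO larvae had been injected as early embryos with a morpholino, an antisense oligonucleotide, against *atg5* and carry the label of a knockdown. 5mRNA larvae had been injected with *atg5* mRNA and carry the label of an overexpression. WT larvae were untreated, and no library came from larvae injected with a control morpholino, so that the injection and the targeting of *atg5* cannot be told apart in 5MO against WT. The methods give pools of 30 larvae for 5MO and for WT and no pool size for 5mRNA. With 1 library in each group there is no replicate error and no test, and every comparison is one of libraries. RNA came from whole larvae, in which fewer cells of a type and less RNA per cell cannot be told apart.

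Levels are RPKM, the reads of a gene scaled to its length and to how many reads its library had in all. STAR took 28190319 read pairs for 5MO, 31140490 for 5mRNA and 27492652 for WT, and between 87.63% and 87.88% of them mapped uniquely. The read totals behind the RPKM values were 20301332 for 5MO, 21857365 for 5mRNA and 19502144 for WT. A pair of measures of difference is used. A log2 ratio was taken between values of RPKM + 0.1, and understates what low genes differ by. A ratio of read shares was taken from reads recovered out of the RPKM values and has a 95% Clopper-Pearson interval (the counting interval, in parentheses after a ratio). Such an interval reflects counting error alone, because no molecular identifiers separate PCR copies from molecules and no second pool of larvae shows how much pools vary. The *atg5* transcript itself was at 7.69 RPKM in 5MO, 8.97 RPKM in 5mRNA and 9.08 RPKM in WT, with a ratio of read shares of 0.847 (0.731 to 0.9803) for 5MO against WT and of 0.989 (0.861 to 1.14) for 5mRNA against WT. A morpholino can block a gene without removing its transcript, and the injected mRNA was given days earlier, so these values do not check the labels. The WT library stood apart in interferon-induced genes: *rsad2* was at 0.121 RPKM in 5MO, 0.0564 RPKM in 5mRNA and 48.7 RPKM in WT, and *isg15* at 3.28 RPKM, 1.64 RPKM and 51.3 RPKM in the same libraries. Muscle and neuron markers were present in all 3 libraries, with sums of 28989 RPKM in 5MO, 27265 RPKM in 5mRNA and 28371 RPKM in WT for 5 muscle genes, of which the actin gene *actc1b* had 14915 RPKM, 13152 RPKM and 14314 RPKM and the creatine kinase gene *ckma* 2445 RPKM, 2710 RPKM and 2687 RPKM, and of 859 RPKM, 848 RPKM and 825 RPKM for 5 neuron genes. Of the neuron markers 4 of 5 had counting intervals above 1 in 5MO against WT, with a median log2 ratio of 0.11. Of all genes with at least 10 RPKM, 24.9% had such intervals. The remaining marker, *stmn1b*, had 221 RPKM in 5MO, 247 RPKM in 5mRNA and 241 RPKM in WT. Its ratio of read shares was 0.916 (0.888 to 0.946) for 5MO against WT.

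Most of the 45 genes were well expressed. A mean of at least 1 RPKM over the 3 libraries was reached by 42 of them, of 19172 genes in all, and 33 reached a mean of 10 RPKM. The median of their mean levels was 35.3 RPKM, against 7.58 RPKM for all named genes that passed the same filter. Behind each value of the 42 genes stood between 42 and 6966 reads. The 3 that did not pass were *atp6v1c2*, *ctsll* and *ctslb*. The members lay on 21 chromosomes of the danRer10 genome build, so that with few exceptions they are not neighbours.

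**Figure D1:**
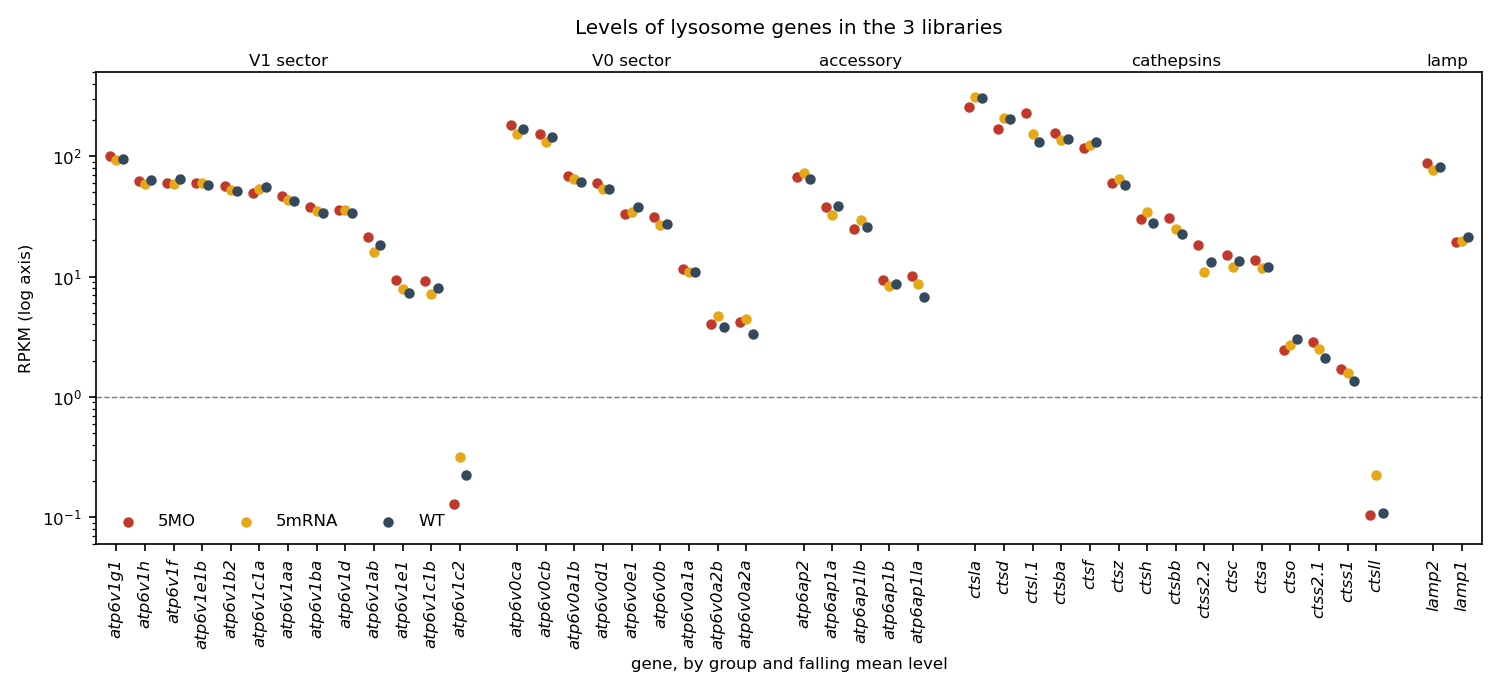
Level of each lysosome gene in RPKM (vertical log axis) in the 5MO, 5mRNA and WT libraries, 1 point per library, with genes grouped by sector or family and ordered by mean level; the dashed line marks 1 RPKM, and ctslb, at 0 in every library, is not drawn. For most genes the 3 points nearly coincide, and ctsl.1 and ctss2.2 show wide gaps among the well expressed genes.

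In 5MO against WT the set lay above the middle of all genes by a small margin. Of 42 genes, 31 had a log2 ratio above 0 and 11 below, with a median of 0.12, against a median of 0.0060 over all 19172 genes tested. The counting interval lay above 1 for 17 members, that is 40.5%, where 20.9% of all genes did so, and below 1 for 6 members, where 20.7% of all genes did so. Counting is more precise at higher levels, and of the 33 members with a mean of at least 10 RPKM 15 had intervals above 1 and 6 below, beside 24.9% and 28.2% of all genes at that level. Only *ctsl.1* was at least 1.5-fold higher in 5MO and no member was at least 1.5-fold lower. By that measure 5.23% of all genes were higher and 5.74% lower, or 1.97% and 3.13% of those with at least 10 RPKM. The quartiles of the log2 ratio over all genes were -0.19 and 0.20.

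The members were evenly split in 5mRNA against WT, with 21 above 0 and 21 below, and a median of -0.0066 beside 0.0075 over all genes. The counting interval was above 1 for 6 members, where 19.1% of all genes were, and below 1 for 7, where 18.8% of all genes were. At 10 RPKM or more, 5 of 33 members had intervals above 1 and 7 below, beside 22.4% and 25.4% of all genes. None of the 42 members reached 1.5-fold, against 4.87% of all genes that were higher and 5.37% that were lower, or 1.73% and 2.6% of those with at least 10 RPKM.

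A direct comparison of 5MO against 5mRNA shares a library with each of the others and is given beside them without being further evidence. It had 28 members above 0 and 14 below, with a median of 0.11 beside -0.0030 over all genes. Counting intervals lay above 1 for 19 members (22.3% of all genes) and below 1 for 6 (22.4% of all genes). At 10 RPKM or more, these were 17 and 6 of 33 members, beside 28.6% and 29.1% of all genes. *ctss2.2* alone was at least 1.5-fold higher in 5MO than in 5mRNA (5.6% of all genes, and 2.39% of those with at least 10 RPKM), and no member was that much lower (5.37% and 2.15%).

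**Figure D2:**
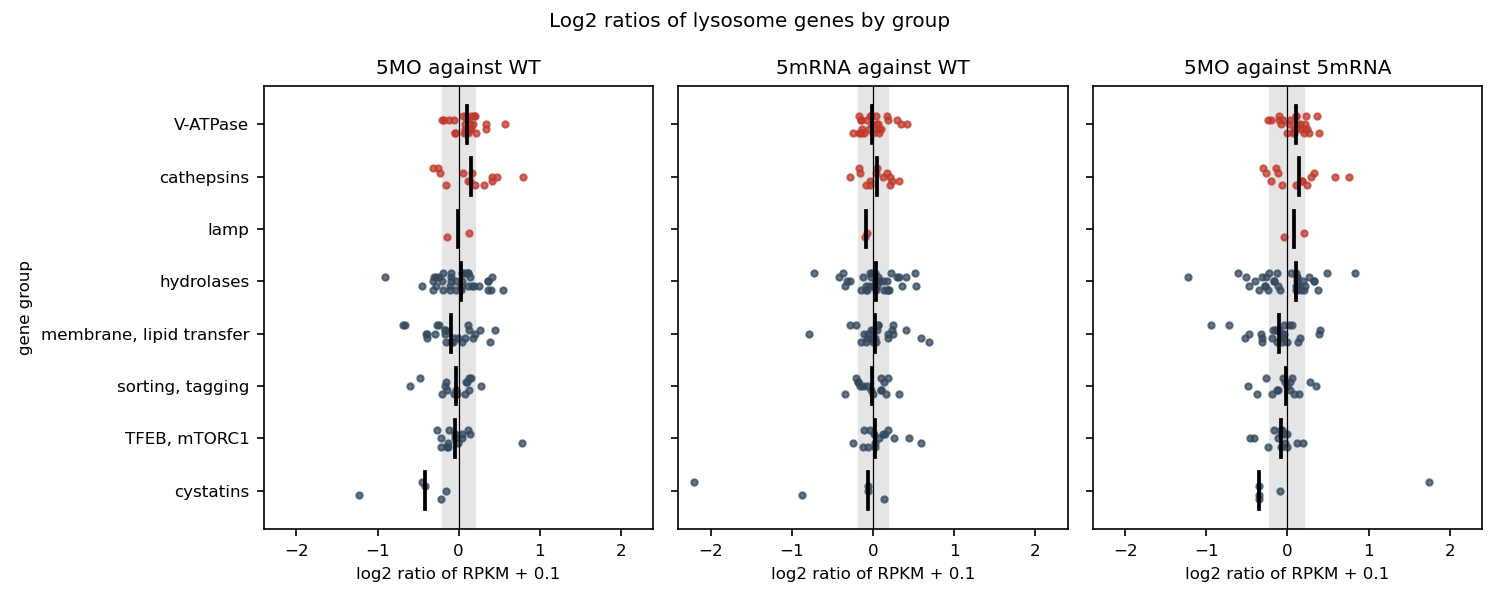
Log2 ratio of RPKM + 0.1 (horizontal axis) of each gene with a mean of at least 1 RPKM, 1 point per gene, for the 3 lysosome families (red) and 5 lists of other lysosomal genes (dark blue) in the 3 comparisons; black bars are group medians and grey bands run between the quartiles of all genes. In 5MO against WT the bars of the V-ATPase and cathepsin genes stand at 0.10 and 0.15 and that of the cystatins at -0.41.

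The V1 sector carries the catalytic head of alternating A and B subunits, the stator stalks made of E and G with C and H, and the central rotor of D and F. It was encoded by 13 of the members, of which 12 passed the filter. Of these, 9 were above 0 and 3 below in 5MO against WT, with a median log2 ratio of 0.11. The counting interval lay above 1 for both A genes, both B genes, *atp6v1e1* and *atp6v1g1* (50%, beside 20.9% of all genes). It lay below 1 for *atp6v1c1a* (8.33%, beside 20.7% of all genes). None of the 12 reached 1.5-fold in any of the 3 comparisons. Of all genes, between 4.87% and 5.6% were that much higher in a comparison and between 5.37% and 5.74% lower. Among genes with at least 10 RPKM these shares were 1.73% to 2.39% and 2.15% to 3.13%. For 12 genes, a count of 0 is near such shares. In the catalytic A subunit, *atp6v1ab* was at 21.1 RPKM in 5MO, 16.1 RPKM in 5mRNA and 18.2 RPKM in WT, with ratios of read shares of 1.16 (1.06 to 1.26) for 5MO against WT, 0.883 (0.805 to 0.970) for 5mRNA against WT and 1.31 (1.198 to 1.43) for 5MO against 5mRNA. This gene was thus high in 5MO and low in 5mRNA relative to WT beyond counting error. The more abundant A gene, *atp6v1aa*, accounted for 68.9% of the A transcripts in 5MO, 72.9% in 5mRNA and 69.8% in WT. *atp6v1g1*, the G subunit of the stalk and the most abundant V1 gene, had 101 RPKM in 5MO, 93.6 RPKM in 5mRNA and 94.9 RPKM in WT, a difference that barely exceeded counting error in 5MO against WT (ratio 1.06, 1.001 to 1.13).

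Subunit C clamps V1 onto V0, and its release takes the pump apart. Its main gene *atp6v1c1a* was lower in 5MO, with 49.3 RPKM in 5MO, 52.9 RPKM in 5mRNA and 55.7 RPKM in WT and a ratio of 0.884 (0.814 to 0.959) for 5MO against WT. Its paralog *atp6v1c1b* was at 9.22 RPKM in 5MO, 7.14 RPKM in 5mRNA and 8.03 RPKM in WT, and only the ratio of 5MO to 5mRNA, at 1.29 (1.105 to 1.51), had an interval that left out 1. The share of *atp6v1c1b* in the C transcripts was 15.7% in 5MO, 11.8% in 5mRNA and 12.6% in WT. The remaining C gene, *atp6v1c2*, was barely detected, with 3 reads in 5MO, 8 in 5mRNA and 5 in WT. *atp6v1h*, the regulatory H subunit, had 61.8 RPKM in 5MO, 58.8 RPKM in 5mRNA and 63.8 RPKM in WT, and its interval left out 1 only in 5mRNA against WT, at 0.922 (0.856 to 0.993).

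The V0 sector is a ring of c and c″ subunits that turns against subunit a, with d joining the ring to the V1 rotor and the small e subunit in the membrane. All 9 of its genes passed the filter. Between 5MO and WT 8 of them were above 0 and 1 below, with a median of 0.11. Counting intervals lay above 1 for 5 (55.6%, beside 20.9% of all genes) and below 1 for 1 (11.1%, beside 20.7%). The 2 genes of subunit c were the most abundant of the whole pump. *atp6v0ca* stood at 181 RPKM in 5MO, 151 RPKM in 5mRNA and 168 RPKM in WT. *atp6v0cb* stood at 153 RPKM in 5MO, 131 RPKM in 5mRNA and 145 RPKM in WT. Both c genes were therefore highest in 5MO and lowest in 5mRNA. *atp6v0ca* overlaps *si:dkey-81l17.7* on the opposite strand over 455 bases, which had 63.2 RPKM in 5MO, 47.2 RPKM in 5mRNA and 60.3 RPKM in WT, the same order. The ratios of *atp6v0ca* and *atp6v0cb* were 1.08 (1.04 to 1.13) and 1.06 (1.02 to 1.099) for 5MO against WT and 0.903 (0.866 to 0.941) and 0.907 (0.872 to 0.944) for 5mRNA against WT. The proportion of the 2 c genes varied little, *atp6v0ca* giving 54.2% of the c transcripts in 5MO, 53.6% in 5mRNA and 53.7% in WT.

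Subunit a sets where in the cell the pump works and forms the path of the protons. *atp6v0a1b*, its main gene, had 68.2 RPKM in 5MO, 64.3 RPKM in 5mRNA and 61.3 RPKM in WT, with a ratio of 1.11 (1.05 to 1.18) for 5MO against WT. The minor *atp6v0a2a* had 4.20 RPKM in 5MO, 4.43 RPKM in 5mRNA and 3.30 RPKM in WT. Its ratio was 1.27 (0.995 to 1.63) for 5MO against WT and 1.34 (1.06 to 1.71) for 5mRNA against WT, the largest between 5mRNA and WT of any member that passed the filter, with 117 reads in WT behind it. *atp6v0a2b* was close in level, at 4.07 RPKM in 5MO, 4.69 RPKM in 5mRNA and 3.78 RPKM in WT, and none of its 3 intervals left out 1. *atp6v0e1*, the e subunit, was the one V0 gene that was lower in 5MO than in WT, at 33.0 RPKM in 5MO, 34.3 RPKM in 5mRNA and 38.1 RPKM in WT and a ratio of 0.865 (0.769 to 0.973). Its annotated span overlaps *igfbp7* on the same strand and *tstd2* on the other, and *igfbp7* had a ratio of 1.17 (1.08 to 1.28) for 5MO against WT, the opposite direction.

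**Figure D3:**
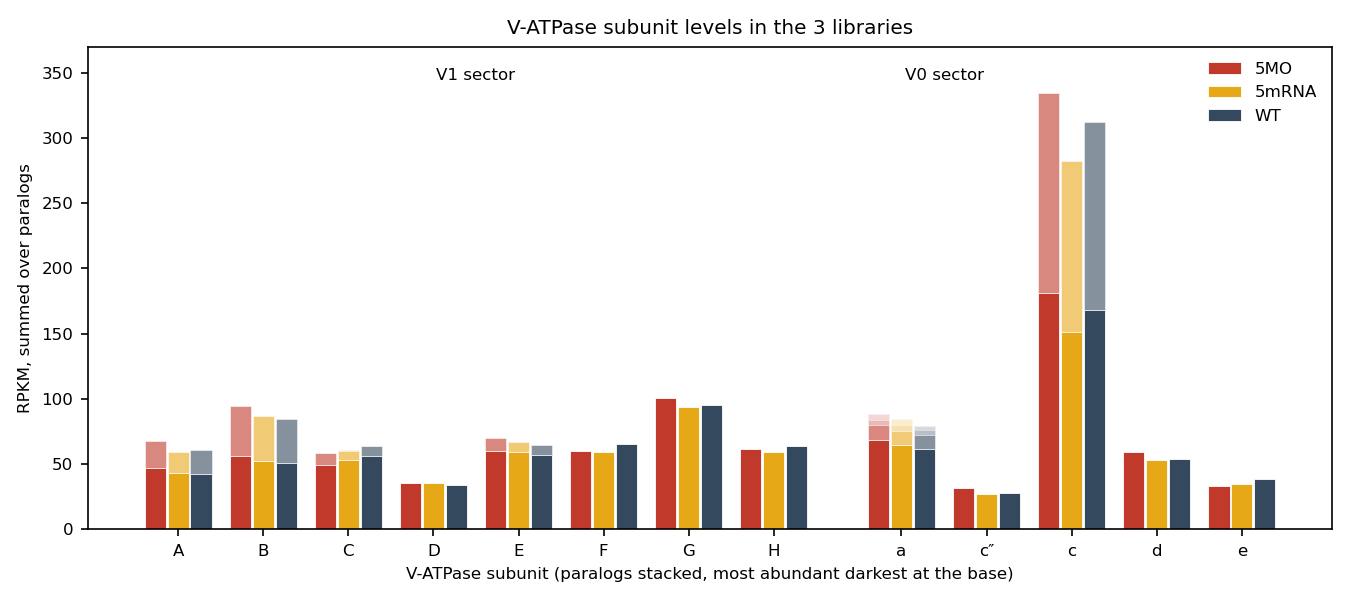
Summed RPKM (vertical axis, from 0) of the genes of each V-ATPase subunit in the 5MO, 5mRNA and WT libraries, with paralogs stacked and the most abundant at the base; 1 library per bar, so there are no error bars. The c subunit stands highest at 334, 283 and 312 RPKM, and most subunits differ little among the 3 libraries.

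With paralogs summed, the 13 subunits of the pump moved within a narrow range. For 5MO against WT 9 subunits were above a ratio of 1 and 4 below, between 0.865 for e and 1.14 for c″, with a median of 1.07. For 5mRNA against WT 4 were above and 9 below, between 0.900 for e and 1.06 for a. For 5MO against 5mRNA 10 were above and 3 below, between 0.962 for e and 1.18 for c. The subunits below 1 in 5MO against WT were C, F, H and e, at ratios of 0.916, 0.923, 0.968 and 0.865. The catalytic A and B subunits were above it, with 67.9 RPKM in 5MO, 59.5 RPKM in 5mRNA and 60.4 RPKM in WT for A and 94.2 RPKM, 87.2 RPKM and 84.6 RPKM for B. Summed over all 27 genes, accessory ones included, the family came to 1243 RPKM in 5MO, 1154 RPKM in 5mRNA and 1186 RPKM in WT, ratios of 1.05 for 5MO against WT and 0.972 for 5mRNA against WT. The a subunit genes *tcirg1a* and *tcirg1b* are not matched by the naming rule and are not in these sums.

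The accessory genes encode ATP6AP1 and ATP6AP2, membrane proteins that in mammals help the pump to assemble, ATP6AP2 being also known as the prorenin receptor, and relatives of ATP6AP1. *atp6ap1la*, one of these relatives, had the widest difference of the family in 5MO against WT, with 10.03 RPKM in 5MO, 8.60 RPKM in 5mRNA and 6.73 RPKM in WT. Its ratio was 1.49 (1.16 to 1.91) for 5MO against WT and 1.28 (0.993 to 1.65) for 5mRNA against WT, from 169, 156 and 109 reads in 5MO, 5mRNA and WT. The gene supplied 12.3% of the *atp6ap1*-type transcripts in 5MO, 10.9% in 5mRNA and 8.43% in WT. *atp6ap1a*, the main gene of this type, was low in 5mRNA alone, at 37.5 RPKM in 5MO, 32.6 RPKM in 5mRNA and 38.8 RPKM in WT, with a ratio of 0.841 (0.796 to 0.888) for 5mRNA against WT and 1.15 (1.09 to 1.21) for 5MO against 5mRNA. By contrast *atp6ap1lb* was highest in 5mRNA, at 24.7 RPKM in 5MO, 29.3 RPKM in 5mRNA and 25.6 RPKM in WT, with a ratio of 1.14 (1.03 to 1.27) for 5mRNA against WT. *atp6ap2* was also highest in 5mRNA, with 67.0 RPKM in 5MO, 72.3 RPKM in 5mRNA and 64.3 RPKM in WT and a ratio of 1.13 (1.05 to 1.21) for 5mRNA against WT. The remaining gene, *atp6ap1b*, had counting intervals that spanned 1 in all 3 comparisons.

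Ionocytes of the larval skin are known for large amounts of V-ATPase at their surface, and their markers differed between the libraries. All 10 listed markers were found and none was at 0, with summed levels of 116 RPKM in 5MO, 109 RPKM in 5mRNA and 175 RPKM in WT. Of the 10, 5 were above 0 and 5 below in 5MO against WT. Their median log2 ratio was 0.0093. Counting intervals lay above 1 for 3 (30%, beside 20.9% of all genes) and below 1 for 4 (40%, beside 20.7%). Those above 1 were *ca15a* at 1.83 (1.44 to 2.32), *gcm2* at 1.43 (1.06 to 1.94) and *foxi3a* at 1.40 (1.07 to 1.84). The ammonia channel gene *rhcga*, the largest part of each sum, had 58.3 RPKM in 5MO, 56.0 RPKM in 5mRNA and 112 RPKM in WT. The sodium pump gene *atp1a1a.5* had 1.47 RPKM in 5MO, 1.74 RPKM in 5mRNA and 3.14 RPKM in WT. The part of these cells in the V-ATPase values was not tested. Neurons are also rich in V-ATPase, in synaptic vesicles, and their markers, of which none was at 0, had a median log2 ratio of 0.11 in 5MO against WT beside 0.10 for the V-ATPase genes. The neuron marker *gap43*, a growth cone protein gene, had 54.0 RPKM in 5MO, 43.5 RPKM in 5mRNA and 39.2 RPKM in WT, and *elavl3*, an RNA-binding protein gene, 152 RPKM in 5MO, 135 RPKM in 5mRNA and 137 RPKM in WT. The neuron marker *stmn1b* was lower in 5MO than in WT, as given above. The part of neurons was not tested.

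Cathepsin transcripts were concentrated in few genes. The 5 most abundant held 84.2% of the summed cathepsin RPKM in 5MO, 84.9% in 5mRNA and 85.6% in WT. The sum itself was nearly the same in the 3 libraries, at 1102 RPKM in 5MO, 1096 RPKM in 5mRNA and 1058 RPKM in WT, but it was made up differently. Of the 14 cathepsins that passed the filter 10 were above 0 and 4 below in 5MO against WT, with a median of 0.15. Counting intervals lay above 1 for *ctsl.1*, *ctss2.2*, *ctsbb* and *ctsba* (28.6%, beside 20.9% of all genes). They lay below 1 for *ctsla*, *ctsd* and *ctsf* (21.4%, beside 20.7% of all genes). In 5mRNA against WT 8 were above and 6 below, with a median of 0.04.

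*ctsl.1* showed the widest difference of all members in 5MO against WT. It encodes a cathepsin L, a cysteine endopeptidase of broad specificity, and lies on chromosome 17 from 27439841 to 27444267 on the plus strand. Its level was 228 RPKM in 5MO, 152 RPKM in 5mRNA and 132 RPKM in WT, from 4036, 2902 and 2240 reads. The 5MO library was thus far above the other 2, which lay closer together. The ratio was 1.73 (1.64 to 1.82) for 5MO against WT, 1.16 (1.09 to 1.22) for 5mRNA against WT and 1.50 (1.43 to 1.57) for 5MO against 5mRNA, the last just under 1.5-fold on the log2 scale used for the count. Of all genes tested, 97.6% had a lower log2 ratio in 5MO against WT.

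The other abundant cathepsin L gene went the other way. *ctsla* had 258 RPKM in 5MO, 310.3 RPKM in 5mRNA and 301 RPKM in WT, with a ratio of 0.856 (0.825 to 0.889) for 5MO against WT and 1.03 (0.995 to 1.07) for 5mRNA against WT. It was the most abundant gene of the whole set in each library. Of the cathepsin L transcripts *ctsl.1* made up 46.9% in 5MO, 32.9% in 5mRNA and 30.4% in WT, and *ctsla* nearly all of the rest. The annotated span of *ctsla* lies wholly within *fbp1a* on the opposite strand. The library kit is given without a statement on strand, so that reads from exon bases shared by such a pair could not be told apart. Only annotated spans were compared, and whether the exons overlap was not examined. *fbp1a*, a gluconeogenic enzyme gene, was at 40.9 RPKM in 5MO, 58.8 RPKM in 5mRNA and 44.3 RPKM in WT. Its ratio was 0.923 (0.851 to 1.001) for 5MO against WT and 1.33 (1.23 to 1.43) for 5mRNA against WT, the latter unlike that of *ctsla*.

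*ctsd* encodes cathepsin D, the main aspartic endopeptidase of the lysosome. It had 169.6 RPKM in 5MO, 208 RPKM in 5mRNA and 202 RPKM in WT, with ratios of 0.841 (0.807 to 0.877) for 5MO against WT, 1.03 (0.993 to 1.07) for 5mRNA against WT and 0.815 (0.783 to 0.848) for 5MO against 5mRNA. It had the lowest ratio of any member with over 100 RPKM in 5MO against WT. *ctsf*, a further cysteine cathepsin, was at 118 RPKM in 5MO, 123 RPKM in 5mRNA and 131 RPKM in WT and was below WT in both injected libraries, at 0.899 (0.864 to 0.935) for 5MO against WT and 0.941 (0.906 to 0.977) for 5mRNA against WT. The span of *ctsf* overlaps *trpt1* on the opposite strand over 554 bases, a gene with a ratio of 0.854 (0.781 to 0.932) for 5MO against WT. *ctsla*, *ctsd*, *ctsf* and *ctsl.1* were set apart after their values had been seen. *ctsla*, *ctsd* and *ctsf* together held 545 RPKM in 5MO, 642 RPKM in 5mRNA and 634 RPKM in WT. All cathepsins but *ctsl.1* summed to 874 RPKM in 5MO, 944 RPKM in 5mRNA and 927 RPKM in WT, lower in 5MO, where the sum over all 16 was higher. The sum of the 12 remaining cathepsins was 329 RPKM in 5MO, 302 RPKM in 5mRNA and 293 RPKM in WT.

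Cathepsin B is a cysteine peptidase that can also remove dipeptides from the ends of proteins. Both of its genes were highest in 5MO. *ctsba* had 154 RPKM in 5MO, 137 RPKM in 5mRNA and 139.8 RPKM in WT, a ratio of 1.104 (1.04 to 1.17) for 5MO against WT. *ctsbb* had 30.4 RPKM in 5MO, 24.8 RPKM in 5mRNA and 22.7 RPKM in WT, a ratio of 1.34 (1.198 to 1.49) for 5MO against WT, and its share of the cathepsin B transcripts was 16.5% in 5MO, 15.3% in 5mRNA and 13.98% in WT. In 5mRNA against WT neither cathepsin B gene differed beyond counting error, with ratios of 0.978 (0.923 to 1.04) for *ctsba* and 1.09 (0.973 to 1.22) for *ctsbb*.

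Cathepsin S is a peptidase of antigen-presenting cells in mammals, where it trims the invariant chain of MHC class II. Its genes *ctss2.1* and *ctss2.2* stand 1038 bases apart on chromosome 16. *ctss2.2* (29579850 to 29585354, plus strand) had 18.4 RPKM in 5MO, 10.8 RPKM in 5mRNA and 13.2 RPKM in WT, from 352, 223 and 242 reads. It was high in 5MO and low in 5mRNA, with ratios of 1.40 (1.18 to 1.65) for 5MO against WT, 0.822 (0.682 to 0.9904) for 5mRNA against WT and 1.70 (1.43 to 2.02) for 5MO against 5mRNA. In 5MO against 5mRNA, 97.0% of all genes tested had a lower log2 ratio. *ctss2.2* overlaps *si:dkey-30o16.8* on the opposite strand over 4007 bases. That gene had 11.6 RPKM in 5MO, 6.63 RPKM in 5mRNA and 8.27 RPKM in WT and ratios of 1.41 for 5MO against WT, 0.802 for 5mRNA against WT and 1.75 for 5MO against 5mRNA, near those of *ctss2.2*. Reads from any exon bases that the pair shares could not be told apart, and whether the exons overlap was not examined. *ctss2.1* was lower in level, at 2.86 RPKM in 5MO, 2.52 RPKM in 5mRNA and 2.12 RPKM in WT, and with 42 to 59 reads no difference was detectable at this depth (ratio 1.35, 0.893 to 2.05, for 5MO against WT). The third cathepsin S gene, *ctss1*, lies within *gpd1c* on the opposite strand and supplied 7.43% of the cathepsin S transcripts in 5MO, 10.6% in 5mRNA and 8.14% in WT.

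Macrophages are rich in lysosomes and in cathepsins, and their markers were present in every library. All 13 listed markers were found and none was at 0, with summed levels of 40.3 RPKM in 5MO, 35.7 RPKM in 5mRNA and 31.4 RPKM in WT. Of the 9 markers that passed the filter 8 were above 0 in 5MO against WT (50.9% of all genes were), with a median log2 ratio of 0.29. Counting intervals lay above 1 for 3 (33.3%, beside 20.9% of all genes) and spanned 1 for 6. The marker below 0 was *mpeg1.1*, with 1.94 RPKM in 5MO, 1.54 RPKM in 5mRNA and 2.38 RPKM in WT. Its ratio was 0.817 (0.582 to 1.14) for 5MO against WT and 0.647 (0.453 to 0.918) for 5mRNA against WT. The transcription factor gene *spi1b* had 5.62 RPKM in 5MO, 4.92 RPKM in 5mRNA and 3.43 RPKM in WT, and the invariant chain gene *cd74a* 3.30 RPKM, 3.22 RPKM and 1.802 RPKM in the same libraries. Other markers were not in this order, and in 5mRNA against WT 5 of the 9 were above 0 and 4 below, with *marco*, a scavenger receptor gene, at 4.07 RPKM in 5MO, 2.46 RPKM in 5mRNA and 3.89 RPKM in WT. The part of macrophages in the cathepsin values was not tested. Markers of lysosome-rich enterocytes, gut cells that take up and digest protein, summed to 767 RPKM in 5MO, 775 RPKM in 5mRNA and 769 RPKM in WT, with 8 of 8 found, none at 0, and 4 above 0 and 4 below in 5MO against WT. Most of that sum was *fabp6*, a bile acid binding protein gene, with 594 RPKM in 5MO, 648 RPKM in 5mRNA and 581 RPKM in WT. The bile acid transporter gene *slc10a2* was low in both injected libraries, at 8.08 RPKM in 5MO, 8.33 RPKM in 5mRNA and 17.3 RPKM in WT. The endocytic receptor gene *lrp2b* had 1.87 RPKM in 5MO, 1.31 RPKM in 5mRNA and 1.40 RPKM in WT. In 5MO against WT, 3 of the 8 markers had counting intervals above 1 (37.5%, beside 20.9% of all genes). They were *lrp2b* at 1.34 (1.17 to 1.53), *dab2* at 1.303 (1.09 to 1.56) and *cubn* at 1.29 (1.13 to 1.47). Intervals lay below 1 for 2 (25%, beside 20.7%), *slc10a2* at 0.466 (0.405 to 0.536) and *plac8.1* at 0.935 (0.881 to 0.992). Those of *fabp6*, *amn* and *lrp2a* spanned 1. The part of these cells in the cathepsin values was not tested either.

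Among the exopeptidases, *ctsh*, an aminopeptidase, had 30.1 RPKM in 5MO, 34.7 RPKM in 5mRNA and 27.7 RPKM in WT, and was higher in 5mRNA than in WT with a ratio of 1.25 (1.06 to 1.47). *ctsz*, a carboxypeptidase, had the same order, with 59.5 RPKM in 5MO, 64.7 RPKM in 5mRNA and 57.2 RPKM in WT and a ratio of 1.13 (1.04 to 1.23) for 5mRNA against WT. *ctsc*, the dipeptidyl peptidase that in mammals activates serine proteases of granulocytes, had the reverse order in the injected libraries, with 15.1 RPKM in 5MO, 12.0 RPKM in 5mRNA and 13.4 RPKM in WT. Only its ratio of 1.26 (1.101 to 1.44) for 5MO against 5mRNA had an interval above 1. *ctso* had the lowest ratio in 5MO against WT among members that passed the filter, 0.799 (0.585 to 1.09), but at 2.44 RPKM in 5MO, 2.70 RPKM in 5mRNA and 3.06 RPKM in WT the interval spanned 1. *ctsa*, a serine carboxypeptidase that also protects other lysosomal enzymes, held 217 reads in 5MO, 198 in 5mRNA and 181 in WT, and none of its intervals left out 1.

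A pair of cathepsin L genes were silent or nearly so at this age. *ctsll*, on chromosome 5 between *atp6v1aa* and *atp6v0a2b*, had 3 reads in 5MO, 7 in 5mRNA and 3 in WT. *ctslb*, known in zebrafish as a gene of the hatching gland, had no read in any library, which allows up to 3 reads, or 0.148 RPM (RPKM without the scaling to length) in 5MO, 0.137 RPM in 5mRNA and 0.154 RPM in WT. The hatching enzyme gene *he2* had 1 read in 5MO, 0 in 5mRNA and 1 in WT. Of the 6 listed hatching gland markers 3 were found, and their sums of 68.2 RPKM in 5MO, 69.2 RPKM in 5mRNA and 74.5 RPKM in WT came almost wholly from *cd63*, a tetraspanin of late endosomes that many cells express and that also stands in the list of lysosomal membrane genes. The other marker that passed the filter, the transcription factor gene *klf17*, had 4.12 RPKM in 5MO, 2.84 RPKM in 5mRNA and 2.43 RPKM in WT, a ratio of 1.70 (1.27 to 2.27) for 5MO against WT. *ctslb* shares its span and strand with the annotated genes *zgc:174855* and *si:dkey-239j18.2*, so that its count could be split among them, but these were at or near 0 as well.

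The lamp genes differed in direction. *lamp2* had 88.6 RPKM in 5MO, 76.9 RPKM in 5mRNA and 80.7 RPKM in WT, with a ratio of 1.097 (1.03 to 1.17) for 5MO against WT, 0.952 (0.890 to 1.02) for 5mRNA against WT and 1.15 (1.08 to 1.23) for 5MO against 5mRNA. *lamp1* had 19.3 RPKM in 5MO, 19.9 RPKM in 5mRNA and 21.3 RPKM in WT, with a ratio of 0.906 (0.827 to 0.993) for 5MO against WT. Thus *lamp2* was highest and *lamp1* lowest in 5MO, and *lamp2* gave 82.1% of their summed level in 5MO, 79.4% in 5mRNA and 79.1% in WT. *lamp2* overlaps *si:dkey-15n5.6* on the opposite strand, which had ratios of 1.11 for 5MO against WT, 0.919 for 5mRNA against WT and 1.21 for 5MO against 5mRNA. In all, 15 of the 45 members overlap another annotated gene.

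**Figure D4:**
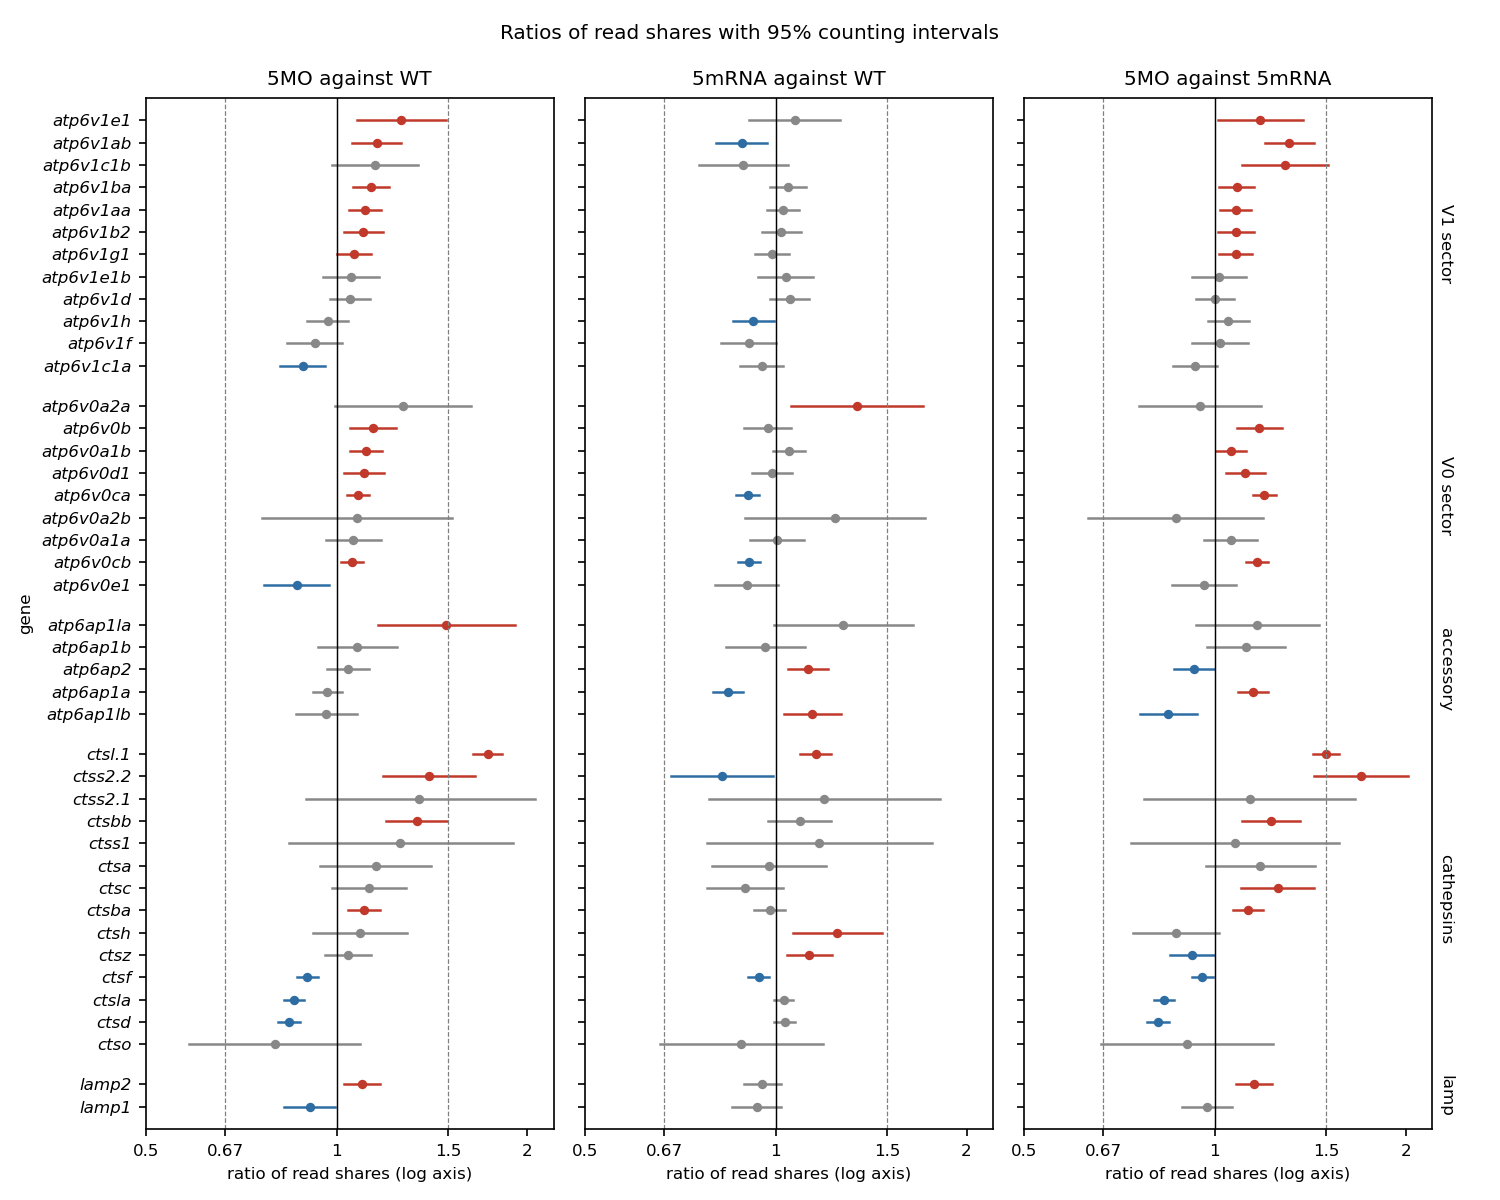
Ratio of read shares of each of the 42 genes with a mean of at least 1 RPKM (points, horizontal log axis) with 95% counting intervals (lines), in the 3 comparisons of single libraries; red intervals lie above 1, blue below 1 and grey span it, and dashed lines mark 1.5-fold. In 5MO against WT 17 intervals are red and 6 blue, and ctsl.1 at 1.73 lies apart from the rest.

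Other genes of the lysosome were counted in 5 lists, beside the 20.9% of all genes with a counting interval above 1 and the 20.7% with one below 1 in 5MO against WT. Of 40 listed genes found for lysosomal hydrolases, with a sorting adaptor and a sulfatase activator among them, 37 passed the filter. Of these, 19 were above 0 and 18 below in 5MO against WT, with a median of 0.03, and counting intervals lay above 1 for 6 (16.2%) and below 1 for 5 (13.5%). The widest differences were those of the sialidase gene *neu3.1* and of the serine carboxypeptidase gene *scpep1*. *neu3.1*, whose counterpart in mammals acts mainly at the plasma membrane, was at 0.587 RPKM in 5MO, 1.51 RPKM in 5mRNA and 1.19 RPKM in WT. *scpep1* was at 23.5 RPKM in 5MO, 18.1 RPKM in 5mRNA and 16.02 RPKM in WT. *neu3.1* rested on few reads, 18 in 5MO, 50 in 5mRNA and 35 in WT. *lgmn*, picked after its values had been seen, encodes legumain, an endopeptidase that processes cathepsins into their mature form, and was at 121 RPKM in 5MO, 112 RPKM in 5mRNA and 90.9 RPKM in WT. The medians for this list were 0.03 in 5mRNA against WT and 0.10 in 5MO against 5mRNA.

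Of 25 genes of lysosomal membrane proteins and lipid transfer that passed the filter, 9 were above 0 and 16 below in 5MO against WT, with a median of -0.09, and counting intervals lay above 1 for 2 (8.0%) and below 1 for 8 (32.0%), where *cd63* is counted in this list too. The potassium and proton channel gene *tmem175* had 2.59 RPKM in 5MO, 5.06 RPKM in 5mRNA and 4.24 RPKM in WT, a ratio of 0.610 (0.461 to 0.804) for 5MO against WT. The calcium channel gene *mcoln1b* had 5.23 RPKM in 5MO, 8.66 RPKM in 5mRNA and 8.31 RPKM in WT, a ratio of 0.629 (0.522 to 0.755). Both channel genes were low in 5MO alone. The list's medians were 0.03 in 5mRNA against WT and -0.10 in 5MO against 5mRNA.

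Sorting receptors and the enzymes that tag hydrolases with mannose 6-phosphate were listed with *rab7*, *ap1m1* and *vps* genes, which are neither. Of these 16 genes 7 were above 0 and 9 below in 5MO against WT, with a median of -0.03. Intervals lay above 1 for 1 (6.25%) and below 1 for 5 (31.25%), with *rab7* and *vps39* among the latter. *gnptg*, a subunit of the tagging enzyme, had 8.06 RPKM in 5MO, 11.3 RPKM in 5mRNA and 12.3 RPKM in WT, and the sorting receptor gene *sort1a* 9.04 RPKM, 10.9 RPKM and 12.6 RPKM in the same libraries. The list's medians were -0.02 in 5mRNA against WT and -0.02 in 5MO against 5mRNA. Members of the TFEB family, transcription factors that switch on lysosomal genes in mammals, were listed with genes of mTORC1 recruitment to the lysosome. Of these 15 genes 5 were above 0 and 10 below in 5MO against WT, with a median of -0.05 and intervals above 1 for 2 (13.3%) and below 1 for 2 (13.3%), and the medians were 0.03 in 5mRNA against WT and -0.08 in 5MO against 5mRNA. *tfec* had 1.57 RPKM in 5MO, 1.36 RPKM in 5mRNA and 0.874 RPKM in WT. *rraga*, a Rag GTPase gene, had 16.8 RPKM in 5MO, 18.8 RPKM in 5mRNA and 20.3 RPKM in WT. *tfeb* itself, named after its values were seen, was at 9.99 RPKM in 5MO, 11.8 RPKM in 5mRNA and 11.6 RPKM in WT, a ratio of 0.861 (0.765 to 0.969) for 5MO against WT.

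Cystatins inhibit cysteine cathepsins, and 5 of 7 listed were found. Their log2 ratios in 5MO against WT were all below 0, where 50.9% of all genes were above it, with a median of -0.41. The counting interval was below 1 for 3 of the 5 (60%, beside 20.7% of all genes) and spanned 1 for the others. *cst3*, by far the most abundant, had 238 RPKM in 5MO, 304 RPKM in 5mRNA and 277 RPKM in WT, with ratios of 0.858 (0.809 to 0.909) for 5MO against WT and 1.098 (1.04 to 1.16) for 5mRNA against WT. *cst14a.1* was at 1.87 RPKM in 5MO, 2.42 RPKM in 5mRNA and 4.52 RPKM in WT, a ratio of 0.414 (0.256 to 0.654) for 5MO against WT and 0.535 (0.3504 to 0.808) for 5mRNA against WT. *cst14b.2* rested on few reads, 21 in 5MO, 6 in 5mRNA and 28 in WT. The median of the 5 was -0.06 in 5mRNA against WT and -0.35 in 5MO against 5mRNA.

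Of the remaining markers, those of the yolk and liver list that passed the filter moved most. The 10 listed genes summed to 5475 RPKM in 5MO, 5011 RPKM in 5mRNA and 3251 RPKM in WT. All 7 that passed the filter were above 0 in 5MO against WT (100%, beside 50.9% of all genes). The yolk protein genes were not among them. *vtg1* had 3 reads in 5MO, 3 in 5mRNA and 4 in WT. *vtg5* had 1 read in each library, and *vtg2* was at 0 in every library. In 5mRNA against WT 6 of the 7 were above 0, and *apobb.1* was lower, with a ratio of 0.875 (0.861 to 0.890). The apolipoprotein genes *apoa1b* and *apoa2* had 2596 RPKM and 1006 RPKM in 5MO, 2113 RPKM and 944 RPKM in 5mRNA and 1376 RPKM and 584 RPKM in WT. Genes listed as notochord markers, 5 found of 6 and none at 0, summed to 115 RPKM in 5MO, 89.5 RPKM in 5mRNA and 77.2 RPKM in WT. The largest part of each sum was *col9a1b*, a type IX collagen gene that cartilage also expresses, so the list does not single out the notochord. In 5MO against WT 4 of the 5 were above 0 (80%, beside 50.9% of all genes). Counting intervals lay above 1 for the same 4 (80%, beside 20.9% of all genes). The marker below 0 was *matn3b*, with a ratio of 0.896 (0.764 to 1.05) for 5MO against WT, an interval that spanned 1. The collagen genes *col9a1b* and *col8a1a* had 52.8 RPKM and 6.51 RPKM in 5MO, 32.1 RPKM and 3.02 RPKM in 5mRNA and 27.8 RPKM and 3.68 RPKM in WT. The part of these tissues in the values of the lysosome genes was not tested.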

How the data were processed

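RNA-seq of 3 libraries of whole larvae was analysed from 1 RPKM table and 3 mapping summaries. The authors aligned read pairs with STAR (version 2.5.2a and the build danRer10, per the submitters' processing notes) and deposited RPKM per gene, scaled by gene length and a read total per library with no further normalization between libraries. The counting tool and annotation release are not given in the sources used here. The deposited STAR summaries, an other kind of file, gave the read pairs and mapping rates.

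The 33 rows that name no gene, with 35.7% to 36.1% of the RPKM sum, were left out, and reads of the rest made up 96.2% of each read total. RPKM values fall on steps of 1 read, from which read totals and the smallest fitting whole reads of 25905 genes were recovered. The true reads may be a whole multiple, in which case the counting intervals are too wide. No count model was used, since no group has a replicate. A test on simulated data for 5MO against WT with 25905 genes gave back 3 of 3 totals and the exact reads of 93.0% of genes, and the true ratio lay within the counting interval for 95.5% of 200 genes that had been changed. The simulated reads varied by counting error only, without PCR copies or variation between pools. A share near 95% was thus built in and does not show how the intervals serve for these libraries.

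Differences were log2 ratios of RPKM + 0.1 among genes with a mean of at least 1 RPKM, and members were counted at 1.5-fold or by an interval that left out 1. Floors used 3 reads. Annotated spans were compared with each other in the coordinates of the table. Gene names are those of the table. Python 3.11.15, numpy 2.4.6, pandas 2.3.3, scipy 1.17.1 and matplotlib 3.10.9 were used.

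The members and lists were chosen with earlier results of these data known. Values are given in full for the 6 most abundant members of each family, for the 5 highest and 5 lowest log2 ratios of each comparison, for both lamp genes, and for the 2 largest differences of a list in 5MO against WT. Other listed genes named in the text were picked after their values had been seen. Alternatives were pseudocounts of 1 and 0.01, mean RPKM filters of 0.1 and 5 or none, scaling by the median of ratios or to an equal RPKM sum, a 2-fold limit, and the uniquely mapped read pairs as totals for the intervals.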

Additional observations from a re-analysis of the deposited data

Results flagged for a closer look

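Signals of genes close to the members by function, but outside the naming rule, were above what a count of 0 allows (3 reads) in each library, and no comparison of the report uses them. A gene listed as *LAMP1* in capitals had 27.3 RPKM in 5MO, 28.6 RPKM in 5mRNA and 32.2 RPKM in WT, above the level of *lamp1* in small letters in each library. *LAMP5*, on an unplaced sequence, had 19.8 RPKM in 5MO, 19.5 RPKM in 5mRNA and 17.0 RPKM in WT. The cathepsin-type gene *cts12* had 4.10 RPKM in 5MO, 2.97 RPKM in 5mRNA and 3.71 RPKM in WT. The genes of the V-ATPase subunit a that osteoclasts use in mammals differed in order, *tcirg1a* having 5.86 RPKM in 5MO, 8.98 RPKM in 5mRNA and 7.64 RPKM in WT, and *tcirg1b* 7.44 RPKM in 5MO, 6.04 RPKM in 5mRNA and 6.48 RPKM in WT.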

How the results depend on the processing

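All 348 recomputed log2 ratios of single named members kept their direction and stayed within the counting interval. Of 90 recomputed family medians and counts, 83 stayed within set limits. For a median these were the medians of its members' counting interval limits, and for a count 1.5 times. The limits were wide, at -0.11 and 0.36 for the cathepsin median of 0.15 in 5MO against WT, so that staying within them says little. Among the 83, the cathepsin median in 5MO against 5mRNA was 0.05 with no filter, in place of 0.14. With uniquely mapped pairs as totals, 3 members in place of 6 had intervals below 1 in 5MO against 5mRNA and 9 in place of 7 in 5mRNA against WT. The 7 that moved were counts of members at 1.5-fold. With a 2-fold limit the count was 0 in 5MO against WT and 0 in 5MO against 5mRNA, where 1 member each had passed at 1.5-fold. With a filter of 0.1 RPKM, or none, the count was 1 in 5mRNA against WT, in place of 0, and 3 in 5MO against 5mRNA, of which 1 was higher and 2 lower, through *atp6v1c2* and *ctsll* with 3 to 8 reads. Scaling to an equal RPKM sum gave 2 in 5MO against 5mRNA, both higher, where *ctsl.1* joined *ctss2.2*. Of 63 recomputed family medians, 60 kept their sign; the others were medians near 0, that of the lamp genes in 5MO against WT and that of the V-ATPase genes in 5mRNA against WT. Other scalings moved all genes by at most 0.024 on the log2 scale.

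No paired analysis was possible because each group has 1 library, and for the same reason no replicate was left out. For *ctso*, *ctss1*, *ctss2.1* and *atp6v0a2b*, with 42 to 95 reads, no difference was detectable at this depth. A search for motifs in promoters was not run.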
